A study of Mus musculus with 7 samples.

Results

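The genes described here are 10 feedback inhibitors of mitogen-activated protein (MAP) kinase signalling, namely the dual-specificity phosphatases Dusp1, Dusp4, Dusp5, Dusp6 and Dusp14, the Sprouty genes Spry1, Spry2 and Spry4, and the Sprouty-related genes Spred1 and Spred2. They were chosen by name, and each symbol matched 1 of the 17732 genes of the table. The tissue was the medial prefrontal cortex of wild-type (WT) male mice of the strain 129SvEv, taken once a remote memory had been retrieved, and its polyadenylated RNA was sequenced in bulk. The labels name 2 groups, CFC with 3 libraries and SC with 4, and do not spell out either name. All 7 share strain, sex, genotype and tissue, and the age of the animals and whether a library is 1 animal are not given in the sources used here. The values are those of 1 comparison made by the authors over these libraries. Values per library were not used here, so levels are means over all 7, and the error of a difference is the authors' standard error (SE). Which group is the numerator is not stated, so each difference keeps the sign of the authors' deposited table and neither group is said to be higher.

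The extracellular signal-regulated kinases (ERK) are switched on by a relay that runs from receptors through Ras, Raf and MEK, and neurons use this relay to turn synaptic input into new transcription. The same transcription makes the brakes of the pathway. Dusp proteins remove the activating phosphates from the kinases, Sprouty proteins interrupt the relay between receptor and Raf, and Spred proteins bring neurofibromin, which switches Ras off, to the membrane. Because ERK activity induces several of these brakes, their transcripts are often read as a record of recent pathway activity.

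The promoters of Dusp1 and Dusp5 are shown because they alone, of the 8 searched, held one of 5 motifs through which neuronal activity and growth factors are known to reach promoters. Promoter windows of RefSeq (GRCm38.p6), from 250 bases before to 50 after a transcription start, were matched by symbol for 8 of the 10 genes, and not for Dusp4 and Spry4. They were searched on both strands for the cAMP response element (TGACGTCA), the AP-1 motif (TGANTCA), an ETS motif (CCGGAAGT), the EGR motif (GCGNGGGCG) and the CArG box of the serum response element. The windows of Dusp1, on the minus strand at chr17:26508423-26508722, and of Dusp5, on the plus strand at chr19:53528895-53529194, read as follows from 5′ to 3′, with the matched letters in capitals.
Dusp1: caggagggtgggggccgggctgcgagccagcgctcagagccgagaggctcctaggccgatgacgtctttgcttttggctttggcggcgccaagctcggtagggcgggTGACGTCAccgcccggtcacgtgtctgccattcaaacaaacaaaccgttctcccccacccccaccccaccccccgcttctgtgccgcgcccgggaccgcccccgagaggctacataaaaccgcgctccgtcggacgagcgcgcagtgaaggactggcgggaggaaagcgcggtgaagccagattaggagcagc
Dusp5: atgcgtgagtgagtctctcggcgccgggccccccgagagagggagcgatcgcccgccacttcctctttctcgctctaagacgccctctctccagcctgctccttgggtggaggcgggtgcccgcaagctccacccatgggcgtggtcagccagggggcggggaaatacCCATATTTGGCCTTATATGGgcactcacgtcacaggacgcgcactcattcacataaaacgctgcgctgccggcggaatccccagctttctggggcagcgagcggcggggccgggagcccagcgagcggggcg

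The capitals in Dusp1 are 1 cAMP response element that begins at position -143 from the start. Those in Dusp5 are 2 CArG boxes side by side, which begin at positions -82 and -72. Of 32851 promoter windows of this length, 1.79% held the full cAMP response element and 1.63% a CArG box. The share of windows with any of the 5 motifs was not computed, so whether 2 of 8 is unusual was not tested. The AP-1, ETS and EGR letters were found in 7.81%, 3.89% and 5.55% of these windows and in none of the 8 searched here. The windows of Dusp6, Dusp14, Spry1, Spry2, Spred1 and Spred2 held none of the 5 motifs, which says only that these letters are not in these windows.

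None of the 10 genes reached an adjusted p under 0.05 in the authors' deposited table (DESeq2 is named in the submitters' processing notes), and none had an unadjusted p-value under 0.05. Of all 13060 genes with an adjusted p-value, 67 passed (0.513%), 0.368% with a positive and 0.145% with a negative sign. Unadjusted p-values under 0.05 made up 8.1%, 4.56% positive and 3.54% negative. With 10 genes, a count of 0 is near all of these background shares. Positive signs were given to 5 of the 10 differences and negative signs to 5 in the authors' deposited table, from -0.23 for Spry1 to 0.31 for Dusp5 on the log2 scale. Their median was -0.016, beside -0.0017 over all genes tested, and the median size of a difference without its sign was 0.08, beside 0.07. The 95% confidence interval held 0 in all 10 genes, as it did in 91.9% of all genes tested. All 10 had mean counts high enough for an adjusted p-value, so none was lost to the authors' filter on low counts. In bulk tissue, fewer cells of a type and less RNA per cell cannot be told apart.

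**Figure D1:**
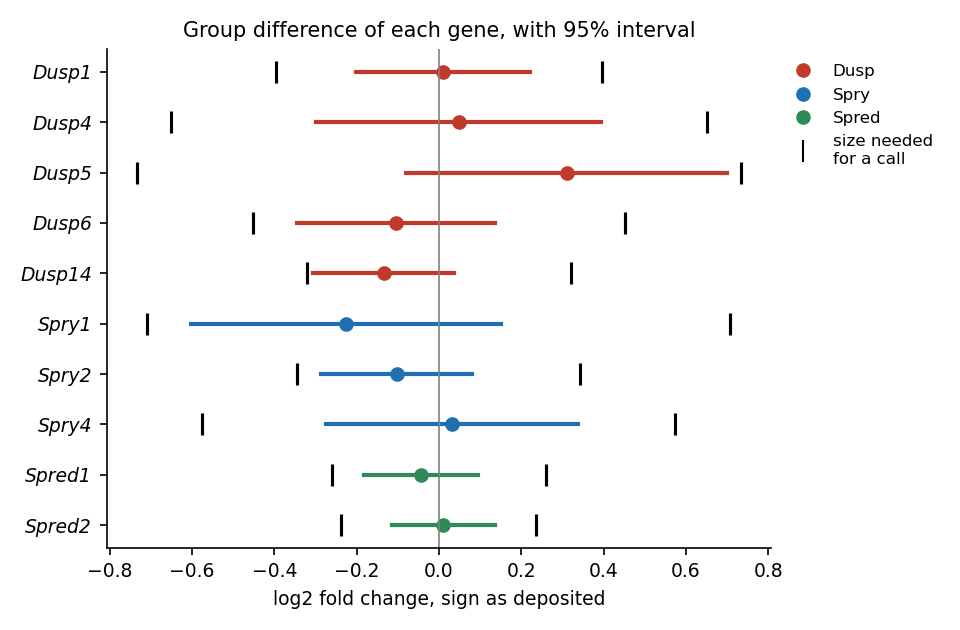
Log2 fold change (x axis, sign as deposited) of each of the 10 genes, as points with 95% confidence intervals, and the size of difference that would have passed the adjusted p-value of 0.05 (black ticks). Every interval crosses 0, and no point reaches a tick. Dusp5 at 0.31 and Spry1 at -0.23 lie farthest from 0 and have the widest intervals, and Spred1 and Spred2 have the narrowest.

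The 10 transcripts differed widely in level. Per kilobase of annotated exon, the mean normalized count over all libraries was 609 for Spred1 and 548 for Spred2, which lay above 90.7% and 89.4% of the genes tested. Dusp14 followed at 422 per kilobase, Spry2 at 366 and Dusp6 at 201, all above the median of 114 over all genes tested. Dusp1 was near that median, at 106 per kilobase. Spry4, Dusp4, Dusp5 and Spry1 formed a low group, at 46.9, 41.7, 37.9 and 29.6 per kilobase. The order was the same when the length of the longest annotated transcript was used, with Dusp1 at 152 per kilobase. Each value is a mean over the libraries with no spread of its own, so which neighbours in this order differ beyond the spread between libraries was not tested.

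**Figure D2:**
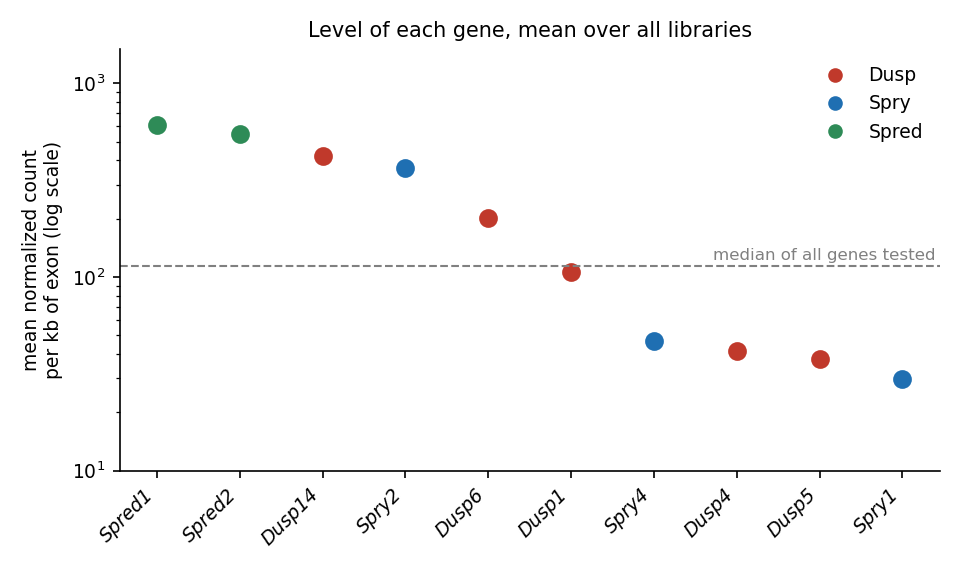
Mean normalized count per kilobase of exon (y axis, log scale) of each of the 10 genes, in falling order, with the median of all genes tested as a dashed line. Spred1 at 609 stands highest and Spry1 at 29.6 lowest, and 5 of the 10 genes lie above the line at 114.

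Among the phosphatases, Dusp1, Dusp4 and Dusp5 encode the inducible nuclear enzymes. Dusp1 (ENSMUSG00000024190, chr17:26505590-26562128, minus strand, GRCm38) acts on the stress kinases p38 and JNK as well as ERK and is a classic immediate-early gene. In the authors' deposited table it had a mean normalized count of 351 and a log2 fold change of 0.010 ± 0.11 (SE) (adjusted p = 0.999). Its interval, from -0.20 to 0.22, corresponds to ratios between 0.87 and 1.17, and 92.5% of the genes tested had a Wald statistic farther from 0. Among the 10 genes, Dusp1 thus had the difference nearest to 0 relative to its error. It shares 11 exonic bases with Ergic1 on the opposite strand.

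Dusp4 (ENSMUSG00000031530, chr8:34807297-34819894, plus strand) encodes a nuclear phosphatase close in structure to that of Dusp1. In the authors' deposited table its mean normalized count was 114 and its log2 fold change 0.048 ± 0.18 (SE) (adjusted p = 0.999). The interval ran from -0.30 to 0.39, which is wider than that of Dusp1 at a lower count.

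Dusp5 (ENSMUSG00000034765, chr19:53529109-53542431, plus strand) encodes a nuclear phosphatase with a preference for ERK. It had the largest difference of the 10 genes in either direction and the lowest unadjusted p-value. The authors' deposited table gives it a mean normalized count of 93.7, a log2 fold change of 0.31 ± 0.20 (SE), an unadjusted p-value of 0.119 and an adjusted p-value of 0.832. Its interval, from -0.08 to 0.70, holds ratios from 0.946 to 1.63. A Wald statistic as far from 0 or farther is not rare in these data, since 14.9% of the genes tested had a larger one. At the precision of Dusp5 a log2 difference of 0.73, or 1.66-fold, would have been needed to pass. In GENCODE M21 547 exonic bases of Dusp5 are shared with AC137853.2 on the opposite strand, and without the strand setting of the counting, reads of the pair cannot be told apart.

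Dusp6 encodes the cytoplasmic phosphatase that is most selective for ERK and is itself a standard readout of ERK activity (ENSMUSG00000019960, chr10:99263231-99267489, plus strand). In the authors' deposited table its log2 fold change was -0.10 ± 0.12 (SE) at a mean normalized count of 628 (adjusted p = 0.988). The interval ran from -0.34 to 0.14. Dusp14 encodes a small atypical phosphatase without the kinase-docking domain of the others (ENSMUSG00000018648, chr11:84048041-84069261, minus strand). In the authors' deposited table its log2 fold change was -0.13 ± 0.09 (SE) at a mean normalized count of 820 (adjusted p = 0.838). Its interval, from -0.30 to 0.037, extends mostly below 0, and 15.3% of the genes tested had a larger Wald statistic in size. The 5 phosphatases therefore had no common sign, with 3 positive and 2 negative, and the intervals of all 5 overlapped.

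The Sprouty genes, which act near the receptor, were low in level except for Spry2. Spry1 (ENSMUSG00000037211, chr3:37639947-37644598, plus strand) had the lowest count of the 10, with a mean of 86.1 in the authors' deposited table. Its log2 fold change there was -0.23 ± 0.19 (SE) (adjusted p = 0.942), and the interval ran from -0.60 to 0.15. Spry1 shares 710 exonic bases with Gm42922 on the opposite strand. Spry2 (ENSMUSG00000022114, chr14:105891947-105896819, minus strand) had a mean normalized count of 765 and a log2 fold change of -0.10 ± 0.09 (SE) (adjusted p = 0.960) in the authors' deposited table. Its interval, from -0.29 to 0.08, lay within a 1.5-fold change in either direction. Spry4 (ENSMUSG00000024427, chr18:38586247-38601415, minus strand) had a mean normalized count of 223 and a log2 fold change of 0.032 ± 0.16 (SE) (adjusted p = 0.999) in the authors' deposited table. Its interval ran from -0.27 to 0.34. The 3 Sprouty genes thus gave 2 negative values and 1 positive one, each smaller than 1.2 times its standard error.

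The Spred genes were the most precisely measured. Spred1, whose human counterpart is mutated in Legius syndrome, a disorder related to neurofibromatosis, had a mean normalized count of 4129 in the authors' deposited table (ENSMUSG00000027351, chr2:117121374-117182279, plus strand). Its log2 fold change there was -0.043 ± 0.07 (SE) (adjusted p = 0.997), and the interval ran from -0.18 to 0.10. Spred2 (ENSMUSG00000045671, chr11:19924375-20024026, plus strand) had a mean normalized count of 2529 and a log2 fold change of 0.011 ± 0.06 (SE) (adjusted p = 0.999) in the authors' deposited table. Its interval ran from -0.11 to 0.14, or from 0.923 to 1.10 as a ratio.

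How small a difference could have been seen broadly followed the mean count, except that Spred1, Dusp6 and Dusp5 needed more than the next gene below them in count. A Wald statistic of 3.68 was the smallest that passed the adjusted threshold in the authors' deposited table, and the largest in size among the 10 genes was 1.56. For Spred2 and Spred1 a difference of 1.18-fold and 1.2-fold would have passed, and for Dusp14, Spry2, Dusp1 and Dusp6 one of 1.25-fold, 1.27-fold, 1.32-fold and 1.37-fold. Spry4, Dusp4, Spry1 and Dusp5 would have needed 1.49-fold, 1.57-fold, 1.63-fold and 1.66-fold. The intervals of 3 genes, Dusp1, Spred1 and Spred2, lay wholly within a change of 1.2-fold in either direction, as did those of 47.1% of all genes tested. Those of 8 lay within 1.5-fold (87.9% of all genes tested), with Dusp5 and Spry1 as the exceptions, and those of all 10 within 2-fold (98.3%). A p-value above the threshold does not show that the groups were alike. The intervals of Dusp5 and Spry1 reach ratios of 1.63 and 0.658.

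**Figure D3:**
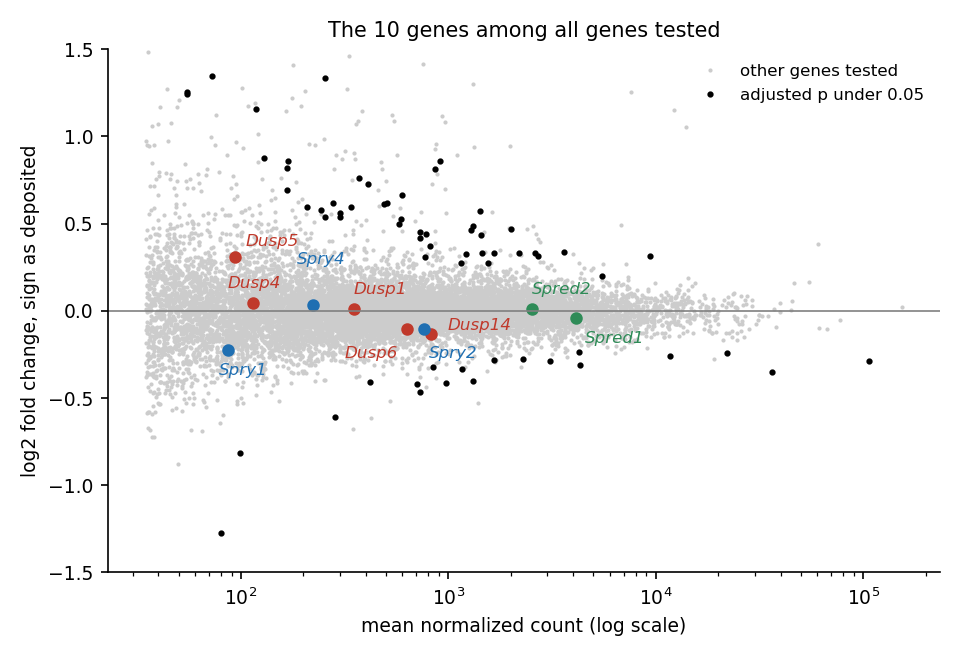
Log2 fold change (y axis, sign as deposited) against mean normalized count (x axis, log scale) for the 13060 genes tested, with the 67 genes under an adjusted p-value of 0.05 in black and the 10 genes in colour. The 10 genes lie within the grey cloud, and 13 genes fall outside the y axis.

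The standard errors add a readout that does not depend on the sign. Each was divided by the running median over the 200 genes nearest in mean count, so that a ratio above 1 marks a gene whose estimate was less precise than those of similarly abundant genes. For the 10 genes the ratio ran from 0.96 for Spry1 to 1.40 for Dusp6, with a median of 1.06, and Dusp1 was at 0.993. None of the 10 exceeded 2, beside 1.85% of all genes tested. Among 22 tested ERK-responsive transcripts, genes such as Fos and Egr1 that ERK activity is known to induce, 4 exceeded 2. These were Etv1 at 4.25, Arc at 3.51, Egr1 at 3.04 and Junb at 2.28, named after their values had been seen. Of the other immediate-early genes of that list, some lay near Dusp1, such as Ier2 at 1.02, Btg2 at 1.03 and Egr4 at 1.07. Others lay higher, such as Fosb at 1.23, Fos at 1.34, Nr4a1 at 1.40 and Ier5 at 1.45. The median of the list was 1.2, beside 1.06 for the 10 genes. Ratios above 2 were not particular to ERK-responsive transcripts. Among the cell-type and layer markers described below, they were found for 8 of 8 oligodendrocyte markers (median ratio 6.67). The same held for 5 of 6 striatal markers (median 3.34) and 4 of 10 deep-layer markers (median 1.42). Ratios above 2 were also found for 1 of 5 astrocyte and 1 of 5 interneuron markers, 1 of 34 genes of the ERK relay and 2 of 29 growth factors and receptors. Upper-layer, microglial and endothelial markers had 0 above 2. Whether these ratios differ between the lists was not tested.

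**Figure D4:**
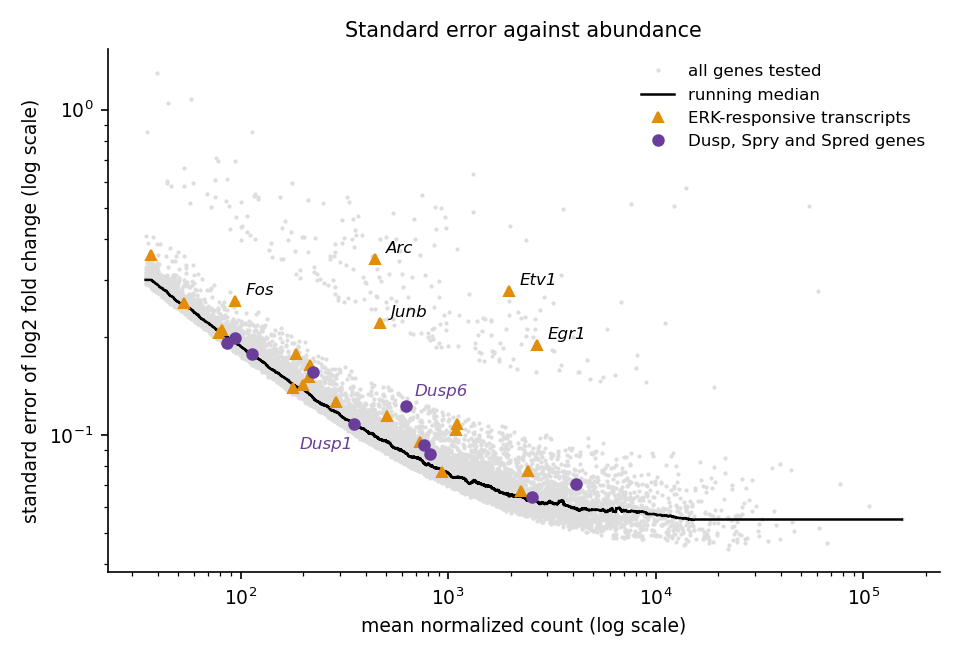
Standard error of the log2 fold change (y axis, log scale) against mean normalized count (x axis, log scale) for all genes tested in grey, with their running median as a line, the 10 genes as circles and the ERK-responsive transcripts as triangles. The circles follow the line, with Dusp6 highest above it at a ratio of 1.40, and Arc, Egr1, Junb and Etv1 stand well above it.

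The ERK-responsive transcripts outside the 10 genes were compared because the feedback genes belong to the same class of targets. Of 22 tested, 1 passed the adjusted threshold in the authors' deposited table, the nuclear receptor gene Nr4a3, at a log2 fold change of 0.42 ± 0.10 (SE) (adjusted p = 0.00643). The share that passed over all genes tested was 0.513%. An unadjusted p-value under 0.05 was given to 9, 7 positive and 2 negative, where 8.1% of all genes tested had one. The median log2 fold change was 0.05, and 15 of the 22 were positive, beside 6452 of all 13060 genes tested. Fos, which encodes a subunit of the AP-1 transcription factor, had a log2 fold change of 0.73 ± 0.26 (SE) (adjusted p = 0.257) in the authors' deposited table. Egr1, a zinc-finger transcription factor gene, had 0.41 ± 0.19 (SE) (adjusted p = 0.550) there, and its relative Egr3 had -0.24 ± 0.08 (SE) (adjusted p = 0.158). Egr2 (1.06), Nr4a2 (0.50), Myc (0.42) and Fosl2 (0.27) were the other positive genes with an unadjusted p-value under 0.05 in the authors' deposited table. Etv4, at -0.30, was the other negative one. Signs were thus mixed, with more positive than negative. Some genes of the list, named after their values had been seen, had log2 fold changes near 0 in the authors' deposited table. Examples are Arc (0.0017 ± 0.35 SE), Egr4 (0.0048 ± 0.13 SE), Etv5 (0.0094 ± 0.07 SE) and Fosb (0.034 ± 0.16 SE), beside Dusp1 (0.010 ± 0.11 SE). The interval of Arc, from -0.68 to 0.68, was far wider than that of Dusp1, so its value does not show that Arc was unchanged. The intervals of the 10 genes held the median of the list, except that of Dusp14, which ran from -0.30 to 0.037 and lay below it. Whether the 10 genes differ from these transcripts was not tested, since that needs values per library.

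No other phosphatase of the Dusp family passed. The 6 other MAP kinase phosphatases, Dusp2, Dusp7, Dusp8, Dusp9, Dusp10 and Dusp16, gave no gene under the adjusted threshold among the 4 with an adjusted p-value in the authors' deposited table (DESeq2), and none of these 4 had an unadjusted p-value under 0.05. Dusp8, which acts on JNK and p38 and whose mean normalized count of 3851 exceeded that of every phosphatase among the 10 genes, had a log2 fold change of -0.08 ± 0.05 (SE) (adjusted p = 0.832) in the authors' deposited table. Dusp2, an inducible nuclear phosphatase, had a mean normalized count of 10.4 and no adjusted p-value there. Its log2 fold change of 1.0 ± 0.60 (SE) gave an unadjusted p-value of 0.0942. Of the 11 other atypical phosphatases 10 were tested and none passed, where 0.513% of all genes tested did. An unadjusted p-value under 0.05 was given to 1, where 8.1% of all genes tested had one. This was Dusp18, at a log2 fold change of -0.25 ± 0.08 (SE) (adjusted p = 0.132) in the authors' deposited table. Dusp13 had a mean normalized count of 6.32 and no adjusted p-value, with a log2 fold change of -1.15 ± 0.69 (SE) there.

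The other brakes on Ras and its receptors, such as neurofibromin and the Ras GTPase-activating proteins, were tested as a further group. Of the 16 listed, 15 were in the table, none passed the adjusted threshold and none had an unadjusted p-value under 0.05 in the authors' deposited table (DESeq2). Over all genes tested, 0.513% passed and 8.1% had an unadjusted p-value under 0.05. The median log2 fold change of the 15 was -0.039. The lowest p-values were those of Spred3, the remaining Spred gene, and of Rasa4, a calcium-regulated Ras GTPase-activating protein gene. Spred3 had a log2 fold change of -0.14 ± 0.07 (SE) (adjusted p = 0.663) in the authors' deposited table, and Rasa4 had -0.31 ± 0.18 (SE) (adjusted p = 0.758).

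The kinase relay that these inhibitors act on held 2 genes under the adjusted threshold among 34 tested, 1 in each direction. Of all genes tested, 0.513% passed. Rasgrf2, which encodes a calcium-dependent activator of Ras, had a log2 fold change of -0.31 ± 0.08 (SE) (adjusted p = 0.0361) in the authors' deposited table. Ksr1, a scaffold that holds Raf, MEK and ERK together, had 0.28 ± 0.07 (SE) (adjusted p = 0.0361) there. Both calls ended under a Bonferroni adjustment or against a null of up to 1.2-fold, each at an adjusted p-value of 1, and the call of Nr4a3 ended too, at 0.173 and 1. Rasgrf2 is also on the list of upper-layer markers used here, and exons of Ksr1 overlap those of Gm11201 on the opposite strand. Mapk3, which encodes an ERK kinase, had a log2 fold change of 0.036 ± 0.09 (SE) in the authors' deposited table (adjusted p = 0.999). The median over the 34 genes was 0.013, and 3 had an unadjusted p-value under 0.05, where 8.1% of all genes tested had one.

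In the parallel JNK, p38 and ERK5 cascades none of 18 tested genes passed in the authors' deposited table (DESeq2), and 1 had an unadjusted p-value under 0.05. Over all genes tested these shares were 0.513% and 8.1%. Of the 18, 14 were negative (median log2 fold change -0.07), beside 6608 of all 13060 genes tested. Whether this list shifted as a set was not tested. The lowest p-value among the 18 was that of Mapk11, the gene of p38 beta, at a log2 fold change of -0.25 ± 0.11 (SE) (adjusted p = 0.461) there. Mapk13, the gene of p38 delta, had a mean normalized count of 11.3 and no adjusted p-value, with a log2 fold change of 1.27 (unadjusted p = 0.0246) in the authors' deposited table. Of the growth factors and receptors that feed the relay, none of 29 tested passed. An unadjusted p-value under 0.05 was given to 3, where 8.1% of all genes tested had one. The lowest p-values were those of the receptor genes Fgfr2 and Erbb3, with log2 fold changes of 0.35 ± 0.14 (SE) and 0.76 ± 0.35 (SE) (adjusted p = 0.379 and 0.540) in the authors' deposited table. Exons of Dusp8, Dusp13, Spred3 and Rasa4 also overlap genes on the opposite strand, and those of Fgfr2 overlap Ctbp2 on the same strand, so reads of these pairs may be split.

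**Figure D5:**
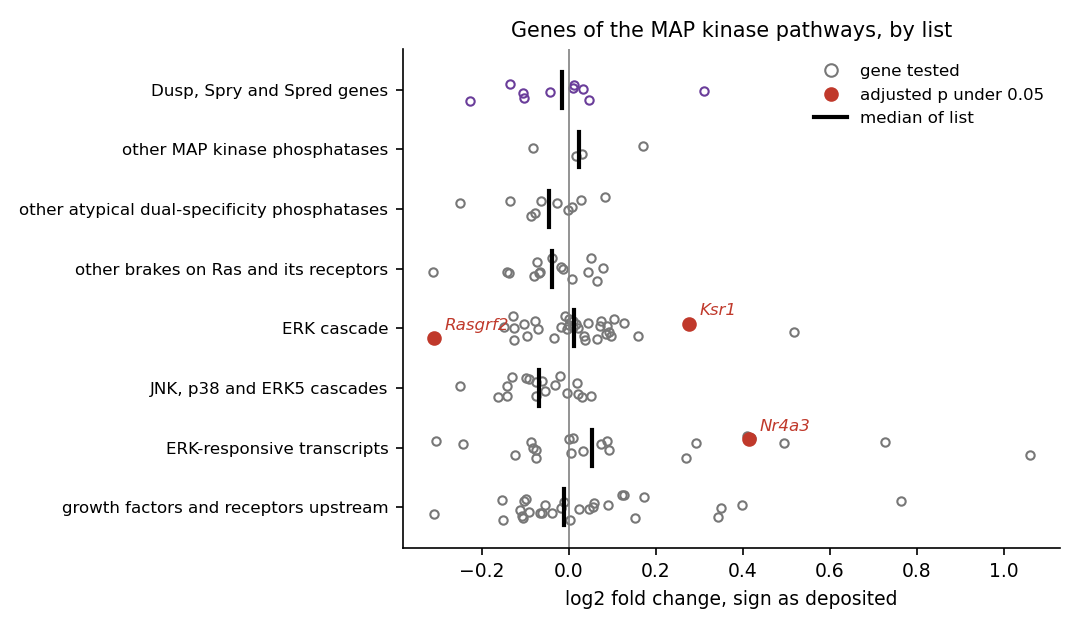
Log2 fold change (x axis, sign as deposited) of each tested gene in 8 lists of MAP kinase pathway genes, 1 list per line, with the median of each list as a bar and genes under an adjusted p-value of 0.05 filled. The 10 Dusp, Spry and Spred genes span -0.23 to 0.31 with no filled point, and the filled points are Rasgrf2, Ksr1 and Nr4a3.

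Markers of cell types and layers were read from the same table. Their lists were chosen with earlier results of these data known, so shared signs and calls in a list are not independent support for a shift. Of all genes tested, 0.513% passed and 8.1% had an unadjusted p-value under 0.05. The excitatory neuron markers Slc17a7, Camk2a, Neurod6 and Tbr1 were all present, with mean normalized counts from 2316 to 106077 in the authors' deposited table. Camk2a passed, with a negative sign. All 10 deep-layer markers were positive, and 6 of them passed (Tle4, Foxp2, Hs3st4, Ccn2, Nxph4 and Sulf1). All 7 upper-layer markers were negative, and Otof and Rasgrf2 passed. The 8 oligodendrocyte markers were positive at a median of 1.28 on the log2 scale, and the 6 striatal markers at one of 0.95, of which 0 and 1 (Drd1) passed in the authors' deposited table (DESeq2), with 8 and 5 at an unadjusted p-value under 0.05. Markers of interneurons (3 of 5 positive), oligodendrocyte precursors (3 of 4), astrocytes (2 of 5), microglia (0 of 5), endothelial cells (0 of 6) and choroid plexus (1 of 1 tested) held no gene under the adjusted threshold, and 6 in all had an unadjusted p-value under 0.05. The median log2 fold changes of the upper-layer, endothelial and microglial lists, -0.27, -0.16 and -0.13, were of the same size as the differences of several of the 10 genes. Those of the deep-layer, striatal and oligodendrocyte lists, 0.59, 0.95 and 1.28, were larger than any of the 10. The part of tissue composition in the values of the 10 genes, or in those of the other pathway lists, was not tested.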

How the data were processed

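RNA from 7 libraries (3 CFC, 4 SC) was prepared with a poly(A)-selecting kit, per the labels' protocols. Trimmomatic, Subread and DESeq2 and the build mm10 are named in the submitters' processing notes, without role or settings. The annotation and the strand setting are not given in the sources used here. The authors deposited 1 table of results. Per the file headers, it holds the mean normalized count (a signal averaged over libraries), the log2 fold change and its standard error, a Wald score, a p-value and an adjusted p-value for each gene. The Wald score equalled the log2 fold change over its standard error in all 17732 genes, and 13060 genes had an adjusted p-value, the lowest with a mean count of 34.9. The depth of single libraries is unknown. Because nothing says that libraries came from separate animals, p-values measure the spread between these libraries only.

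The analysis planned for a results table was used, with the authors' adjusted p-values over all genes and a threshold of 0.05. Intervals (95%) were computed from the deposited log2 values and standard errors. The size needed for a call was the smallest passing Wald statistic times the standard error. Levels were divided by exon length in GENCODE M21 (GRCm38, the assembly of mm10), which held 17726 of the IDs. Scripts ran in Python 3.11.15 with numpy 2.4.6, pandas 2.3.3 and scipy 1.17.1 and were tested on simulated data. Named by rule are the 10 genes, in each other pathway list every gene under the threshold and the 2 with the lowest p-values, and Mapk3, Fos and Egr1. Other genes of these lists are named outside this rule, some of them after their values had been seen. A further gene that the rule names is not reported here. The genes and lists were chosen with earlier results of these data known. Gene lists are described by counts and medians only. The alternatives were another threshold, 2 other filters, a Bonferroni adjustment, a null of a 1.2-fold change and 2 rescalings of the Wald statistic.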

Additional observations from a re-analysis of the deposited data

How the results depend on the processing

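None of the 10 genes passed in any of the 7 alternatives run. The Bonferroni adjustment and the 1.2-fold null are stricter by construction and could not have added a call, and only the regression could turn a sign, which it did for none of the 10. The alternatives were a threshold of 0.1, no filter on the mean count, a mean count of at least 100 (which leaves out Dusp5 and Spry1), a Bonferroni adjustment, a null of a change of at most 1.2-fold, division of the Wald statistic by its robust SD (1.01) and regression of it on GC content, mean count and transcript length. The lowest adjusted p-value of any of the 10 genes was 0.775, for Dusp14. Alternatives that adjusted p-values anew did so over genes of the authors' deposited table. The authors' own adjusted values imply a larger set, so small shifts may come from that. The 2 ERK cascade genes and the 1 ERK-responsive gene under the threshold fell to 0 and 0 under each of these 2 stricter settings. No paired analysis was possible because only the authors' comparison was used here, with no value per library. For the same reason leaving out a library, a replicate block and other count models were not run, and whether 1 library decides a value was not tested. Low counts limit Dusp4, Dusp5, Spry1 and Spry4 most.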

Other observations

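ERK is also switched off by phosphatases outside the Dusp family, and Sprouty and Spred proteins act through partners. Both lists were written after the table had been seen and before their genes were looked up. Of 7 genes for tyrosine phosphatases and protein phosphatase 2A subunits that act on ERK, 6 were tested, and none passed in the authors' deposited table (DESeq2). Ptpn7 had a mean normalized count of only 2.11 and no adjusted p-value there. Its log2 fold change was 3.16 ± 1.64 (SE), with an unadjusted Wald p-value of 0.0538. Ptpn5, the gene of the striatal-enriched phosphatase that removes the tyrosine phosphate of ERK, had a log2 fold change of -0.05 ± 0.06 (SE) (adjusted p = 0.979) there, with a mean normalized count of 3942. The catalytic subunit genes Ppp2ca and Ppp2cb had -0.05 ± 0.06 (SE) and -0.10 ± 0.06 (SE) there. The 1 gene at an unadjusted p-value under 0.05 was Ppp2r1b, a scaffold subunit gene, at 0.22 ± 0.11 (SE) (adjusted p = 0.616) in the authors' deposited table. Over all genes tested, 8.1% were under that value.

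Of 9 genes for binding partners of Sprouty and Spred proteins, none passed there. An unadjusted p-value under 0.05 was given to 2, where 8.1% of all genes tested had one. These were the ubiquitin ligase genes Cbl and Nedd4, with log2 fold changes of 0.15 ± 0.07 (SE) and 0.11 ± 0.05 (SE) (adjusted p = 0.613 and 0.647) in the authors' deposited table. Cbl is known to bind phosphorylated Sprouty and Nedd4 to ubiquitinate it. The kinase gene Tesk1 had -0.12 ± 0.07 (SE) (adjusted p = 0.803) there.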
